A study of Mus musculus with 12 samples.

Results

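Annexins are proteins that attach to phospholipid membranes when calcium binds them, and they take part in membrane repair, vesicle traffic and clot dissolution at the cell surface. S100 proteins are small calcium-binding proteins that mostly act as dimers on partner proteins, and several of them pair with an annexin. In the kidney, calbindin-D9k (S100g) carries calcium through cells of the distal tubule, while Anxa2 and its partner S100a10 are familiar genes of injured tubules. Transcript levels of 10 genes of these families were described here, taken by name from the 55487 gene identifiers of the deposited count table: the annexins Anxa1, Anxa2, Anxa3, Anxa5 and Anxa13, and the S100 genes S100a4, S100a6, S100a10, S100a11 and S100g. They were picked as rows by name, without a threshold on their values.

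RNA was sequenced from mouse kidney cortex in 12 libraries that fell into 4 groups of 3. Mice that received no ischemia were either controls, given as wild type in the labels and as ALR flox/flox in the study's methods (Ctrl), or animals carrying ALR flox/flox and a Ggt1-Cre transgene, which deletes ALR in proximal tubule cells (PT-KO; labelled as an ALR knockdown). The same genotypes after 22 min of bilateral renal ischemia and 24 h of reperfusion (I/R) formed the groups Ctrl+I/R and PT-KO+I/R. Mice were 6 to 8 weeks old on a C57BL/6 background, and the groups without ischemia are labelled as sham. ALR, encoded by Gfer, is a sulfhydryl oxidase of mitochondria that was named for promoting liver growth. The labels number the libraries but do not say that each came from a separate animal, so p-values measure the spread between libraries, which may in part be technical.

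Libraries held 12165089 to 23123693 counts. Gfer itself measured 12.7, 11.3 and 14.5 CPM in Ctrl (CPM, counts scaled to the size of the library) and 10.01, 17.1 and 15.1 CPM in PT-KO, so its level did not separate these groups (log2 fold change 0.13 ± 0.20 SE, adjusted p = 0.761). After I/R it measured 15.3, 20.02 and 17.7 CPM in Ctrl+I/R and 21.3, 22.7 and 21.4 CPM in PT-KO+I/R, every knockout library above every control library, and the difference did not pass the test (0.32 ± 0.13, adjusted p = 0.0723). These counts are summed over the whole gene and all cell types, the floxed part and the rest alike, so they do not check the deletion, and the groups are called here as they were labelled. Ctrl libraries 1 and 2 held 22402 and 19755 counts of Xist and 0 counts of Y-linked genes, whereas the other 10 libraries held 11 or fewer Xist counts and at least 3109 Y-linked counts. Every comparison against Ctrl therefore also set libraries of both kinds against libraries of 1 kind. In fits with sex, taken from these counts, as a covariate, the sex term took up Ctrl libraries 1 and 2. Ctrl was then set by library 3 alone. Ctrl library 3 was assigned to its group from its column name, which matches no numbered control title.

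The members lie on several chromosomes (GRCm38, GENCODE M21), and 4 of the 5 S100 members share chromosome 3. S100a4 (chr3:90603771-90606045) and S100a6 (chr3:90612882-90624181) lie 6836 bases apart in the main S100 cluster. S100a11 (chr3:93520488-93526287) and S100a10 (chr3:93555080-93564643) form a second pair 28792 bases apart. Of the 16 S100 genes examined that had a position, 13 were on chromosome 3, while S100g lies on the X chromosome (chrX:162961992-162964599). The annexins were dispersed, with Anxa1 at chr19:20373428-20390944, Anxa2 at chr9:69453620-69491795, Anxa3 at chr5:96793339-96845966, Anxa5 at chr3:36448923-36475894 and Anxa13 at chr15:58341471-58389244. Anxa13 is annotated there as a processed transcript, and the others as protein-coding genes.

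Promoter sequence is shown for Anxa2 and S100a11 because these were the members whose RefSeq promoter window held the AP-1 motif TGANTCA, which is the binding motif of the FOS and JUN factors that many kinds of tissue injury induce. A window runs from 250 bases before to 50 bases after a gene's start, and 7 members had a window. The printed runs (GRCm38.p6, forward strand, 5′ to 3′) stop before the annotated start of the gene, and capitals mark the motif.
S100a11 chr3:93520246-93520487: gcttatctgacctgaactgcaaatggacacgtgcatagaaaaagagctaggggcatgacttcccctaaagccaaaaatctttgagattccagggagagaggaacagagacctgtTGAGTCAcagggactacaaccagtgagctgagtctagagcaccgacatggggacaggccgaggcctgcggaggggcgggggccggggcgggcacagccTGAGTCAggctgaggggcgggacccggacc
Anxa2 chr9:69453433-69453619: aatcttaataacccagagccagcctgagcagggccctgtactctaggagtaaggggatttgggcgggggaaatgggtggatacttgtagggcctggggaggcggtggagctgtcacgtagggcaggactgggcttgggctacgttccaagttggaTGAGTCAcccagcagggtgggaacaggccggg
S100a11 held the motif at positions -136 and -38 from its RefSeq start and Anxa2 held it at -95. The motif reads the same on either strand apart from its central base, and 7.81% of all 32851 mouse windows held it at least once, and 0.46% at least 2 times. The motif GGAATG of the TEAD factors, searched on both strands, was present in 14.7% of windows and in 1 member, Anxa1, at -236. These matches describe the letters of the windows and are no measure of binding.

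In Ctrl kidneys, S100g was the most abundant member per length of transcript and the annexins were moderate to low. S100g stood at 845 ± 86.1 CPM per kb of exon (SD, n = 3), S100a11 at 92.1 ± 14.9, Anxa5 at 45.4 ± 2.61 and S100a10 at 37.5 ± 1.42 CPM per kb. Anxa2, S100a6, Anxa3, Anxa1 and Anxa13 followed in that order, from 12.8 down to 1.92 CPM per kb. In this order only the neighbours Anxa3 and Anxa1 had overlapping libraries. The order in PT-KO began with the same 4 genes, and there Anxa5 and S100a10 overlapped. In Ctrl+I/R, S100g (407 ± 112 CPM per kb) and S100a11 (340 ± 143) overlapped. In PT-KO+I/R, S100a11 had the higher mean of the pair, 557 ± 80.5 against 515 ± 123 CPM per kb, and their libraries still overlapped. In that last group S100a10 followed at 393 ± 42.5 CPM per kb.

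S100a4, which binds non-muscle myosin and is widely used as a fibroblast gene, was close to absent from the table. It had 4 counts in PT-KO library 2, 1 count each in Ctrl+I/R libraries 1 and 2, and 0 counts in the other 9 libraries. A count of 0 allows up to 3 counts per library by counting error alone, so no fold is given, and the gene did not pass the filter on low counts in any comparison. Of its 584 exon bases, 302 (51.7%) are shared on the same strand with Gm42674, which also had 0 counts in every library. How the counting treated reads in shared bases is not given in the sources used here. The fibroblast marker list was counted in every group, with a summed level of 124 to 745 CPM over the 12 libraries. The remaining 9 members passed the filter in every comparison.

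**Figure D1:**
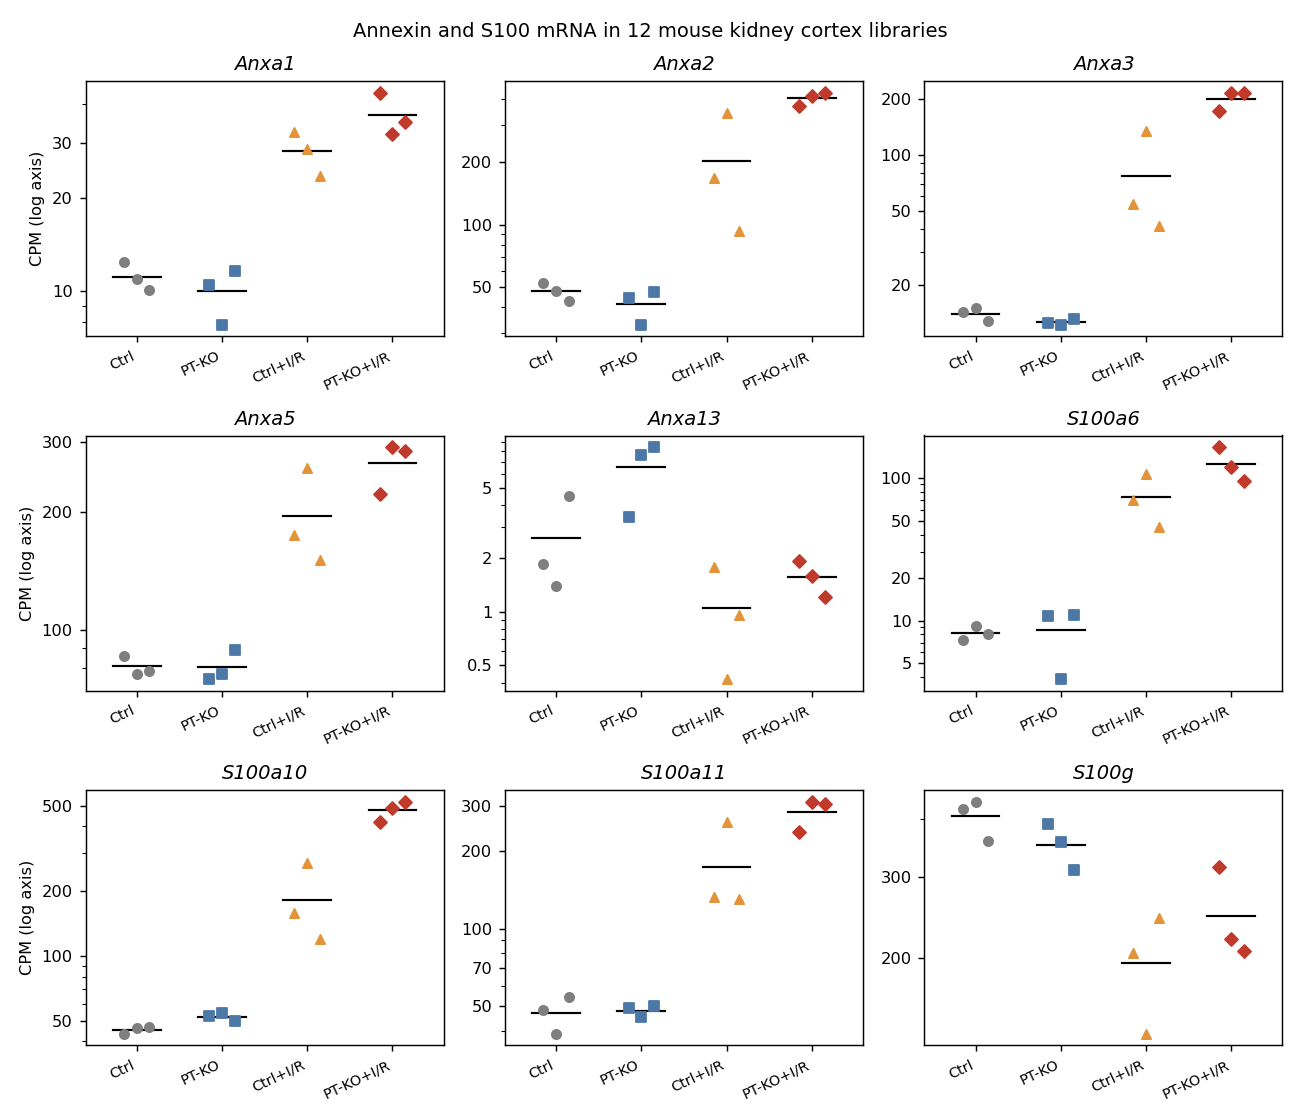
Level of each of the 9 tested members in every library, in CPM on a log axis, by group. Points are libraries and bars are group means (n = 3). Anxa1, Anxa2, Anxa3, Anxa5, S100a6, S100a10 and S100a11 lie higher in every I/R library than in any uninjured library, whereas S100g and Anxa13 do not follow that pattern.

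The first comparison asked how I/R injury changed these transcripts in controls. Of the 9 members tested, 7 rose and S100g fell (adjusted p under 0.05), whereas Anxa13 did not pass the test. Across all 15567 genes tested, 19.4% were called, 11.4% as higher and 7.97% as lower. The median log2 fold change of the 9 members was 1.88, and that of all genes was -0.01. Libraries of the 7 members that rose did not overlap between the groups, nor did those of S100g, and 43.6% of all genes were without overlap in this comparison (21.8% in each direction).

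Among the annexins, Anxa2, which binds plasminogen and its activator at the cell surface together with S100a10, was at 52.5, 47.9 and 43.0 CPM in Ctrl. In Ctrl+I/R it reached 168, 342 and 93.7 CPM, which is a 4.20-fold rise (log2 fold change 2.07 ± 0.42 SE, adjusted p = 0.0209). Library 2 was well above the others, and even the lowest injured library exceeded every Ctrl library. Anxa3, a phospholipid-binding annexin of epithelia and neutrophils, went from 14.3, 14.98 and 12.8 CPM to 54.4, 134 and 41.5 CPM (log2 fold change 2.44 ± 0.42, adjusted p = 0.0136). Here too library 2 was the highest of the injured group. Without it, both genes kept their call with smaller changes, 1.47 ± 0.24 for Anxa2 (adjusted p = 0.0161) and 1.79 ± 0.15 for Anxa3 (adjusted p = 0.00374). Anxa5, the annexin known for binding phosphatidylserine exposed on dying cells, was at 86.1, 77.4 and 78.8 CPM in Ctrl and at 174, 259 and 151 CPM after injury (log2 fold change 1.27 ± 0.20, adjusted p = 0.0111). Anxa1, which dampens inflammation through formyl peptide receptors, rose from 12.4, 10.96 and 10.1 to 32.7, 28.7 and 23.5 CPM (log2 fold change 1.35 ± 0.16, adjusted p = 0.00520). The 3 injured libraries were closest together for Anxa1, and library 2 was not the highest.

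Anxa13, an annexin of intestinal and renal epithelium, was scarce, and its libraries overlapped. It was at 1.85, 1.40 and 4.51 CPM in Ctrl and at 1.79, 0.42 and 0.96 CPM in Ctrl+I/R (log2 fold change -1.27 ± 0.62, adjusted p = 0.174), from 8 to 81 counts per library. The 2 Ctrl libraries with Xist counts were the 2 lowest of the uninjured libraries. In a fit to all 12 libraries with sex as a covariate, where Ctrl was set by library 3 alone, the value was -2.06.

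Among the S100 genes, S100a6 (calcyclin), which binds the partner protein Cacybp, had the largest change of any member in controls. It was at 7.36, 9.13 and 8.07 CPM in Ctrl and at 70.0, 106 and 45.3 CPM in Ctrl+I/R, an 8.99-fold rise (log2 fold change 3.17 ± 0.30, adjusted p = 0.00268). S100a10, the annexin A2 partner also called p11, rose from 43.5, 46.3 and 46.5 to 159, 269 and 119 CPM (log2 fold change 2.00 ± 0.28, adjusted p = 0.00834). The Ctrl libraries of S100a10 were close together and the injured libraries were spread. S100a11, which pairs with Anxa1, rose from 48.1, 39.0 and 54.2 to 133, 258 and 130 CPM (log2 fold change 1.88 ± 0.28, adjusted p = 0.0100).

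S100g moved the other way. Its level was 421, 436 and 358 CPM in Ctrl and 205, 137 and 244 CPM in Ctrl+I/R (log2 fold change -1.05 ± 0.22, adjusted p = 0.0217). Library 2, the highest for 6 of the 9 members in this group, was the lowest for S100g. With sex as a covariate in the fit to all 12 libraries, the change of S100g was -0.88 and lost its call. Ctrl was set by library 3 alone in that fit. Without Ctrl library 1, or without Ctrl library 2, 3 members kept their call, Anxa1, S100a6 and S100a10, and the count over all genes fell to 379 without Ctrl library 1. Anxa2 also lost its call without Ctrl library 3 and without Ctrl+I/R library 1, and S100g without Ctrl+I/R library 1.

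In PT-KO kidneys, I/R was again set against no I/R. All 9 members passed the test, 7 higher and 2 lower, in a comparison where 65.5% of the 15155 genes tested were called, 32.9% higher and 32.7% lower. With a background that high, a call alone says little about a gene, and the sizes are the more informative values. The fitted changes were larger in size than in controls for every tested member but S100g, and the test of that difference is the interaction. The median log2 fold change was 2.58 over the members and 0.01 over all genes.

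Anxa3 rose from 12.5, 12.2 and 13.1 CPM in PT-KO to 171, 214 and 215 CPM in PT-KO+I/R, a 16.04-fold change (log2 fold change 4.003 ± 0.12, adjusted p = 2.3e-08). Anxa2 rose from 44.3, 33.0 and 47.4 to 372, 416 and 431 CPM (log2 fold change 3.30 ± 0.14, adjusted p = 7.5e-08). The injured libraries of both genes were close to each other, unlike those of Ctrl+I/R. S100a10 went from 52.8, 54.3 and 49.5 to 420, 488 and 522 CPM (log2 fold change 3.20 ± 0.11, adjusted p = 3.2e-08), and S100a6 from 10.8, 3.88 and 10.9 to 164, 118 and 94.5 CPM (log2 fold change 3.91 ± 0.34, adjusted p = 5.1e-06). The uninjured S100a6 libraries were uneven, with PT-KO library 2 the lowest.

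S100a11 rose from 48.9, 45.2 and 49.9 to 237, 311 and 305 CPM, a 5.98-fold change. Anxa1 went from 10.5, 7.82 and 11.7 to 43.6, 32.0 and 35.2 CPM, a 3.72-fold change. Anxa5 went from 74.9, 77.4 and 88.8 to 221, 292 and 285 CPM, a 3.34-fold change. These 3 genes, which also had the smaller rises in controls, showed no overlap between injured and uninjured libraries. Over all genes, 70.7% were without overlap, 34.8% higher and 35.9% lower.

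Anxa13 and S100g were the members that fell. Anxa13 went from 3.42, 7.65 and 8.45 CPM down to 1.93, 1.60 and 1.21 CPM, and these libraries did not overlap (log2 fold change -2.04 ± 0.36, adjusted p = 6.3e-04). S100g was at 390, 357 and 310 CPM against 315, 220 and 207 CPM, and these did overlap (log2 fold change -0.50 ± 0.16, adjusted p = 0.0190). The S100g call was lost without PT-KO library 1, PT-KO+I/R library 3 or PT-KO+I/R library 4, with adjusted p from 0.0698 to 0.0797. It was also lost in the fit to all 12 libraries, with or without sex as a covariate (adjusted p = 0.0555 and 0.0569). The libraries of both groups held Y-linked counts, so the sex term was no separate check on this comparison.

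**Figure D2:**
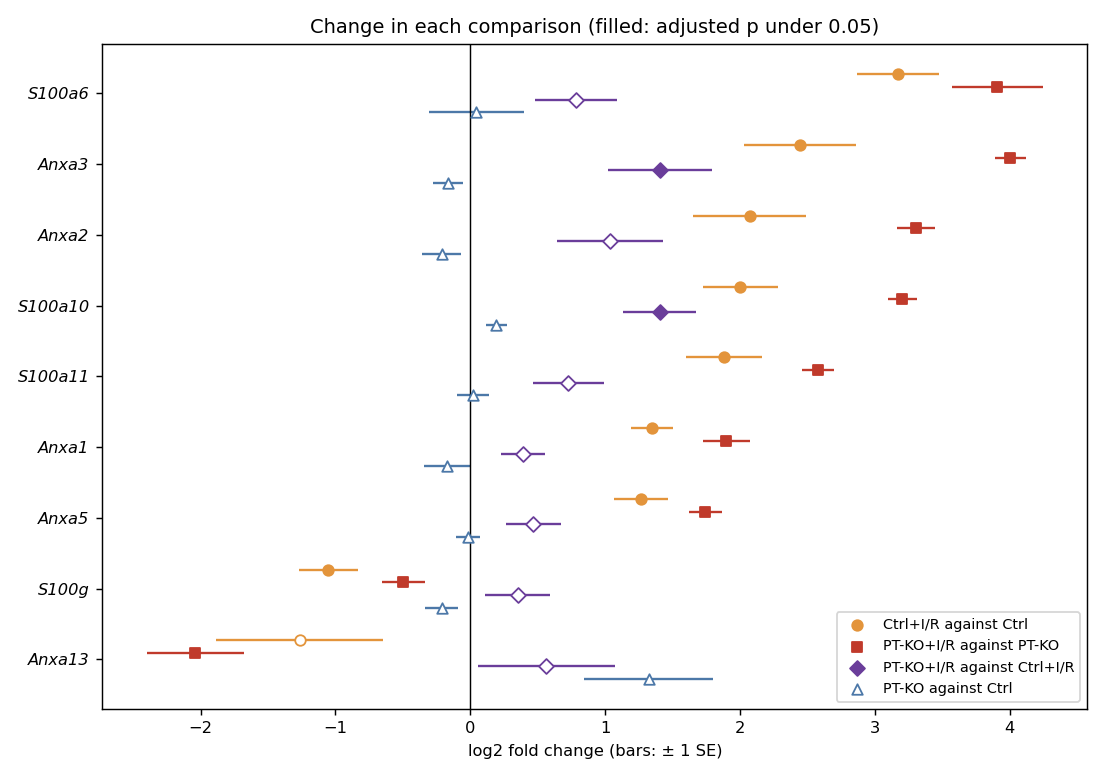
Log2 fold change (horizontal axis) of the 9 tested members in 4 comparisons, with bars of 1 SE (n = 3 libraries a group). Filled symbols passed an adjusted p of 0.05 and open symbols did not. S100a6 and Anxa3 lie farthest to the right after I/R, at 3.17 and 2.44 in controls and 3.91 and 4.003 in PT-KO.

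Without ischemia, no member passed the test between PT-KO and Ctrl, and the share of genes called in this comparison was 0% of 15291. By edgeR's quasi-likelihood test 0 members were called, although 2573 genes had an unadjusted p under 0.05, and DESeq2 called 0 members and 440 genes. Anxa13 had the largest difference, 1.32 ± 0.48 on the log2 scale (adjusted p = 0.250), from the CPM values given above. That value rested in part on which Ctrl libraries were set against PT-KO. It was 1.98 and passed the test without Ctrl library 3 (adjusted p = 0.0160). That fit set only Ctrl libraries with Xist counts against PT-KO libraries with Y-linked counts, so genotype and sex cannot be told apart in it. With sex as a covariate, where Ctrl was set by library 3 alone, the Anxa13 difference was 0.53. S100a10 was the 1 member without overlap, higher in each PT-KO library, by 0.19 ± 0.08 (adjusted p = 0.270), where 21% of all genes showed no overlap, 10.1% higher and 10.9% lower. The other 7 members tested, Anxa1, Anxa2, Anxa3, Anxa5, S100a6, S100a11 and S100g, had log2 fold changes between -0.21 and 0.04.

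The comparison of injured kidneys asked whether ALR deletion changed the levels reached after I/R. The fitted level of all 9 members was higher in the injured PT-KO group, and for Anxa3 and S100a10 the difference passed the test. In this comparison 46.9% of the 15281 genes tested were called, 22.5% higher and 24.4% lower, beside 2 of the 9 members. The median log2 difference of the members was 0.73 and that of all genes was -0.005.

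S100a10 was at 159, 269 and 119 CPM in Ctrl+I/R and at 420, 488 and 522 CPM in PT-KO+I/R, a 2.64-fold difference (log2 1.40 ± 0.27, adjusted p = 0.00445). Anxa3 was at 54.4, 134 and 41.5 CPM against 171, 214 and 215 CPM, a 2.65-fold difference (log2 1.41 ± 0.39, adjusted p = 0.0189). For both genes each PT-KO+I/R library was above each Ctrl+I/R library. Anxa2 was likewise without overlap, at 168, 342 and 93.7 CPM against 372, 416 and 431 CPM, and did not pass the test (log2 1.03 ± 0.39, adjusted p = 0.0606). Over all genes, 58.6% were without overlap here, 28.6% higher and 30.1% lower.

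The other members overlapped between the injured groups and did not pass the test. S100a11 differed by 0.73 ± 0.26 (adjusted p = 0.0518) and S100a6 by 0.78 ± 0.31 (adjusted p = 0.0658). Anxa5 differed by 0.47 ± 0.21 (adjusted p = 0.0950) and Anxa1 by 0.39 ± 0.16 (adjusted p = 0.0843). Anxa13 and S100g had differences of 0.56 ± 0.51 and 0.35 ± 0.24, each less than 2 times its SE.

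The number of members called depended on the fit. DESeq2 called 4, and a fit without a filter on low counts and 1 fit to all 12 libraries called 5 each. Anxa3 and S100a10 were among them in these 3 fits, whereas a fit with the replicate number as a block called 0 members. Ctrl+I/R library 2 also bore on these results. Without it, 6 members were called, Anxa2, Anxa3, Anxa5, S100a6, S100a10 and S100a11, and the differences of S100a10 and Anxa3 were 1.78 and 2.06. Without Ctrl+I/R library 1, PT-KO+I/R library 3 or PT-KO+I/R library 4, only S100a10 kept its call among the 9 members, and Anxa3 had adjusted p from 0.0565 to 0.0713. Library 2 also had the lowest proximal tubule marker sum of Ctrl+I/R, at 5412 CPM against 9916 and 12802 CPM, and its neutrophil marker sum was the highest at 47.4 CPM against 24.5 and 10.8 CPM.

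Whether the I/R change itself differed between genotypes was tested as an interaction over all 12 libraries. Anxa3 rose by 1.57 ± 0.47 more on the log2 scale in PT-KO than in controls (adjusted p = 0.0242), and S100a10 by 1.21 ± 0.32 more (adjusted p = 0.0135). Those 2 of 9 members passed, where 30.6% of 16168 genes did. Anxa2 had an interaction of 1.24 ± 0.48 (adjusted p = 0.0674). DESeq2 and the fit with no filter on low counts each called 3 members, with Anxa2 added (adjusted p = 0.0249 and 0.0251). A fit with the replicate number as a block called 0 members. The estimates for Anxa1, Anxa5, S100a6, S100a11 and S100g were positive, from 0.48 to 0.75, and that for Anxa13 was -0.76, each without passing the test. With sex as a covariate Anxa3 lost its call (1.43) and S100a10 kept its own (1.24), but Ctrl was then set by library 3 alone. Without Ctrl+I/R library 2, 5 members passed, with interactions of 2.23 for Anxa3 and 1.85 for Anxa2.

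S100a10 and Anxa2 form a complex, so the ratio of their levels per length was followed. It was 2.55, 2.97 and 3.33 in Ctrl and 2.92, 2.42 and 3.92 in Ctrl+I/R. The PT-KO libraries had ratios of 3.67, 5.06 and 3.22, and the injured PT-KO libraries 3.48, 3.61 and 3.73. The group means were 2.95 ± 0.39, 3.09 ± 0.76, 3.98 ± 0.96 and 3.604 ± 0.12 (SD, n = 3), and the PT-KO+I/R libraries lay above those of Ctrl while all other pairs of groups overlapped.

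The rest of the annexin and S100 families was taken from lists of their other genes. Of 7 other annexins, 6 were tested. In controls, where 19.4% of all genes were called, Anxa11 fell after I/R (log2 fold change -0.47 ± 0.11, adjusted p = 0.0294) and the other 5 did not pass. In PT-KO, where 65.5% of all genes were called, Anxa4 (1.51 ± 0.09), Anxa7 (1.11 ± 0.09) and Anxa11 (0.37 ± 0.08) rose and the other 3 did not pass. Anxa11 thus went in opposite directions, from 45.2 to 52.8 CPM in Ctrl down to 33.4 to 39.4 CPM in Ctrl+I/R, and from 49.8 to 50.8 CPM in PT-KO up to 59.3 to 68.5 CPM in PT-KO+I/R. Its interaction was 0.85 ± 0.13 (adjusted p = 6.6e-04), and those of Anxa4 (0.98 ± 0.22) and Anxa7 (0.61 ± 0.19) also passed, beside 30.6% of all genes. Between the injured groups, where 46.9% of all genes were called, these 3 were higher in PT-KO+I/R by 0.87 to 0.89 (log2), whereas Anxa6 was lower by 0.81 ± 0.13 (adjusted p = 0.00225).

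Of the 12 other S100 genes, 6 had enough counts for the I/R comparisons. In controls 4 of these rose and in PT-KO 5 rose, where 11.4% and 32.9% of all genes were called higher, and 0 fell in either. S100a8 and S100a9, which form the neutrophil protein calprotectin, had the largest changes, 4.26 ± 0.87 and 4.69 ± 0.65 in controls and 6.23 ± 0.35 and 5.37 ± 0.34 in PT-KO. Both started from at most 20 counts per uninjured library. S100a14 rose by 1.69 and 2.23, and S100a16 by 0.45 and 1.05, in controls and PT-KO respectively. Between the injured groups S100a9 (1.67 ± 0.42), S100a8 (1.501 ± 0.50) and S100a16 (0.48 ± 0.12) were higher in PT-KO+I/R, where 22.5% of all genes were called higher. S100a16 alone of the 6 passed the interaction test (0.62 ± 0.15, adjusted p = 0.0101), which 30.6% of all genes passed.

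**Figure D3:**
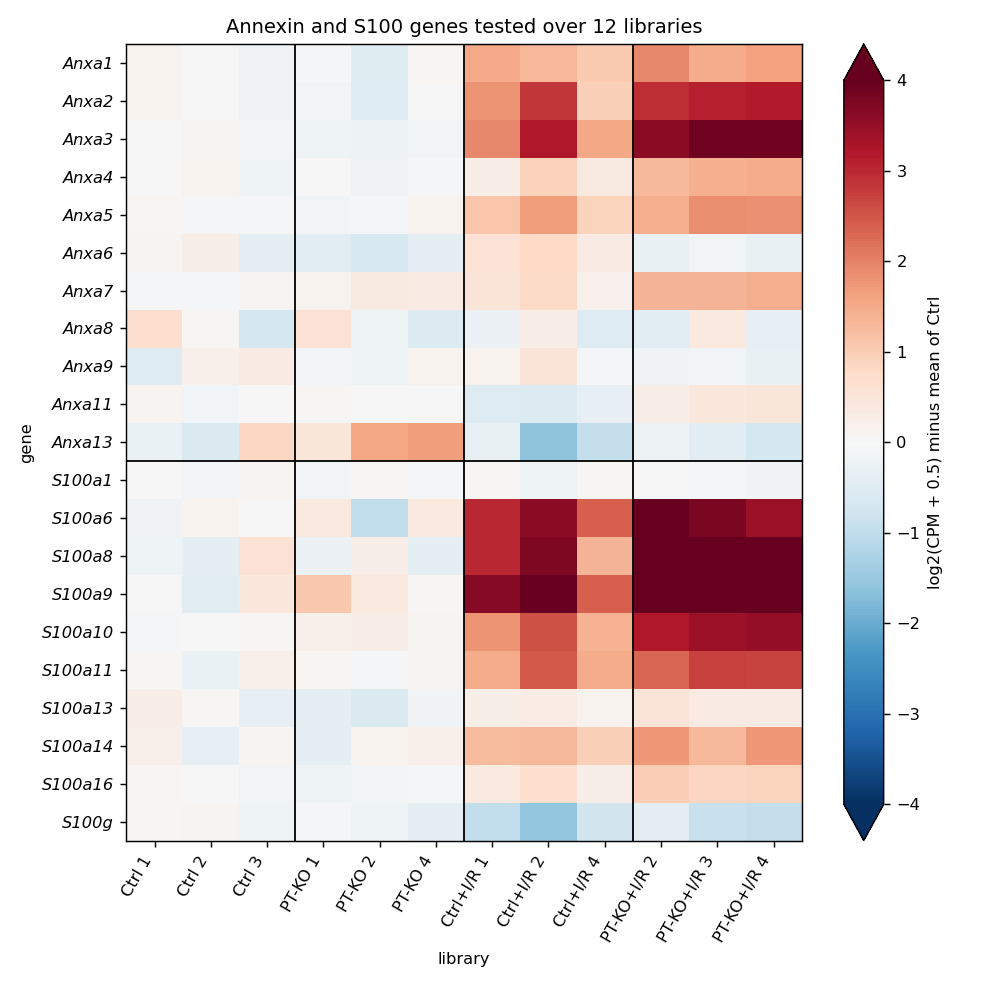
Level of the 21 annexin and S100 genes tested in all 12 libraries, as log2(CPM + 0.5) minus the mean of Ctrl, with genes in rows and libraries in columns. Red is higher and blue is lower than Ctrl, and the colour scale ends at -4 and 4. Columns of PT-KO+I/R are the reddest for Anxa2, Anxa3 and S100a10, and S100g is blue in every I/R library.

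Genes that work with these proteins were examined as a list of 13 partners and receptors, of which 10 were tested. In controls, where 11.4% of all genes were called higher, 2 rose after I/R: Plaur, the urokinase receptor (2.77 ± 0.49), and Myh9, the non-muscle myosin chain that S100a4 binds (1.18 ± 0.24). In PT-KO, where 32.9% of all genes were called higher, 9 rose, led by Plaur (4.47 ± 0.24), Ager (2.81 ± 0.35), Plat (1.59 ± 0.13) and Myh9 (1.497 ± 0.15). Ager encodes RAGE, a receptor for several S100 proteins, and Plat encodes the tissue plasminogen activator that binds the annexin A2 and S100a10 complex. Plat was between 49.2 and 77.6 CPM in the 9 libraries of Ctrl, PT-KO and Ctrl+I/R, and at 162, 189 and 202 CPM in PT-KO+I/R. Its interaction was 1.56 ± 0.25 (adjusted p = 0.00100), and Ager (3.04 ± 0.57), Plaur (1.71 ± 0.61) and Pdcd6 (0.61 ± 0.14), which encodes a partner of annexins A7 and A11, passed too, beside 30.6% of all genes. Between the injured groups, where 22.5% of all genes were called higher, 6 of the 10 were higher in PT-KO+I/R, with Ager (1.86), Plaur (1.74), Plat (1.46) and the scaffold gene Ahnak (0.85) the largest. Ager stayed low, at 4.03 CPM or less in every library. The formyl peptide receptor genes Fpr1, Fpr2 and Fpr3 were not tested, with at most 26 counts in any library.

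S100g acts beside other calcium carriers and channels of the distal tubule and the vitamin D and klotho genes that bear on them, and a list of 11 such genes was examined. In controls 5 fell and 2 rose after I/R, that is 7 of 11 called beside 19.4% of all genes. Pvalb (-3.75 ± 0.74), Calb1 (-2.38 ± 0.62) and Slc8a1 (-1.88 ± 0.49), which encode a calcium buffer, the large calbindin and the sodium-calcium exchanger, fell, with larger fitted changes than that of S100g, and the calcium channel gene Trpv6 rose by 2.36 ± 0.40. In PT-KO 6 fell and 3 rose, beside 65.5% of all genes called, led by Pvalb (-4.42 ± 0.43), Slc8a1 (-3.23 ± 0.20), Kl (-2.91 ± 0.09) and Calb1 (-1.79 ± 0.23). Kl encodes klotho, a coreceptor of the phosphate hormone FGF23. Between the injured groups 4 were lower and 1 higher in PT-KO+I/R, a share near the 46.9% of all genes called, with Cyp27b1, the enzyme that activates vitamin D, higher by 2.31 ± 0.30 and Slc8a1, Kl and the calcium pump gene Atp2b4 lower by 1.88, 1.68 and 1.05. The interactions of Cyp27b1 (1.87 ± 0.55), Kl (-1.72 ± 0.34) and Atp2b4 (-0.67 ± 0.23) passed as well, beside 30.6% of all genes. The S100g difference between the injured groups, 0.35 ± 0.24, did not pass the test and had the opposite sign to those of Slc8a1 and Kl. Of the 11 listed genes, 5 had a positive fitted difference there and 6 a negative one.

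Cell type markers moved with the groups, and in bulk RNA fewer cells of a type and less RNA per cell cannot be told apart. The summed level of 8 proximal tubule markers was 20256 to 21693 CPM in Ctrl, 19015 to 21421 CPM in PT-KO, 5412 to 12802 CPM in Ctrl+I/R and 4245 to 5402 CPM in PT-KO+I/R, with none of the markers at 0. All 8 fell in PT-KO and 4 fell in controls, where 32.7% and 7.97% of all genes were called lower. The 5 distal and connecting tubule markers summed to 1254 to 1922 CPM without ischemia, to 377 to 696 CPM in Ctrl+I/R and to 388 to 512 CPM in PT-KO+I/R, and S100g fell beside the sum. The 5 did not move together, since Slc12a3, Calb1 and Pvalb fell after I/R in both genotypes, Trpv5 rose in both (0.92 in controls and 0.44 in PT-KO), and Trpm6 fell by 0.91 in controls and rose by 0.79 in PT-KO. The 8 neutrophil markers, which include S100a8 and S100a9, summed to at most 3.80 CPM without ischemia, 10.8 to 47.4 CPM in Ctrl+I/R and 57.5 to 87.5 CPM in PT-KO+I/R, and Mpo was at 0 in every group but the last. Of the 6 neutrophil markers tested between the injured groups, S100a8, S100a9 and Retnlg were called higher in the knockout, where 22.5% of all genes were called higher, and the other 3 did not pass. Csf3r, the receptor for granulocyte colony-stimulating factor, measured 5.18, 11.5 and 2.93 CPM in Ctrl+I/R and 4.29, 6.56 and 5.12 CPM in PT-KO+I/R (log2 fold change -0.27 ± 0.44, adjusted p = 0.639).

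Other cells followed a different order. Podocyte markers (5 genes) summed to 358 to 395 CPM in Ctrl+I/R and 361 to 411 CPM in PT-KO+I/R, and endothelial markers (6 genes) to 338 to 381 CPM and 427 to 451 CPM. The endothelial list went both ways between these groups, with 4 markers called higher and 1 lower, where 22.5% and 24.4% of all genes were. Tek was the lower one, with means of 43.4 CPM in Ctrl+I/R and 17.8 CPM in PT-KO+I/R. The 6 fibroblast markers summed to 124 to 260 CPM in Ctrl, PT-KO and PT-KO+I/R and to 568 to 745 CPM in Ctrl+I/R. Between the injured groups 3 of the 6 were called lower in the knockout, where 24.4% of all genes were. These were the collagen genes Col1a1 (log2 -3.47), Col1a2 (-2.53) and Col3a1 (-2.14). The other 3, Dcn (0.023), Pdgfra (0.25) and Pdgfrb (-0.42), did not pass the test. The 7 macrophage markers summed to 88.5 to 142 CPM in Ctrl+I/R and 51.0 to 60.3 CPM in PT-KO+I/R, and the 5 T cell markers to 4.98 to 13.4 CPM against 0.25 to 0.70 CPM. The macrophage list went both ways between the injured groups: 5 of its 7 markers were lower in the knockout, where 24.4% of all genes were called lower, among them Cx3cr1 (-5.77) and Adgre1 (-4.37), whereas Cd68 was higher by 0.76 ± 0.18 (adjusted p = 0.0117), and Itgam differed by -0.20 without passing the test. Cd68 and Itgam rose after I/R in both genotypes, by 2.86 and 4.05 in controls and by 3.85 and 4.02 in PT-KO. The part of any of these cell types in the members' levels was not tested.

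**Figure D4:**
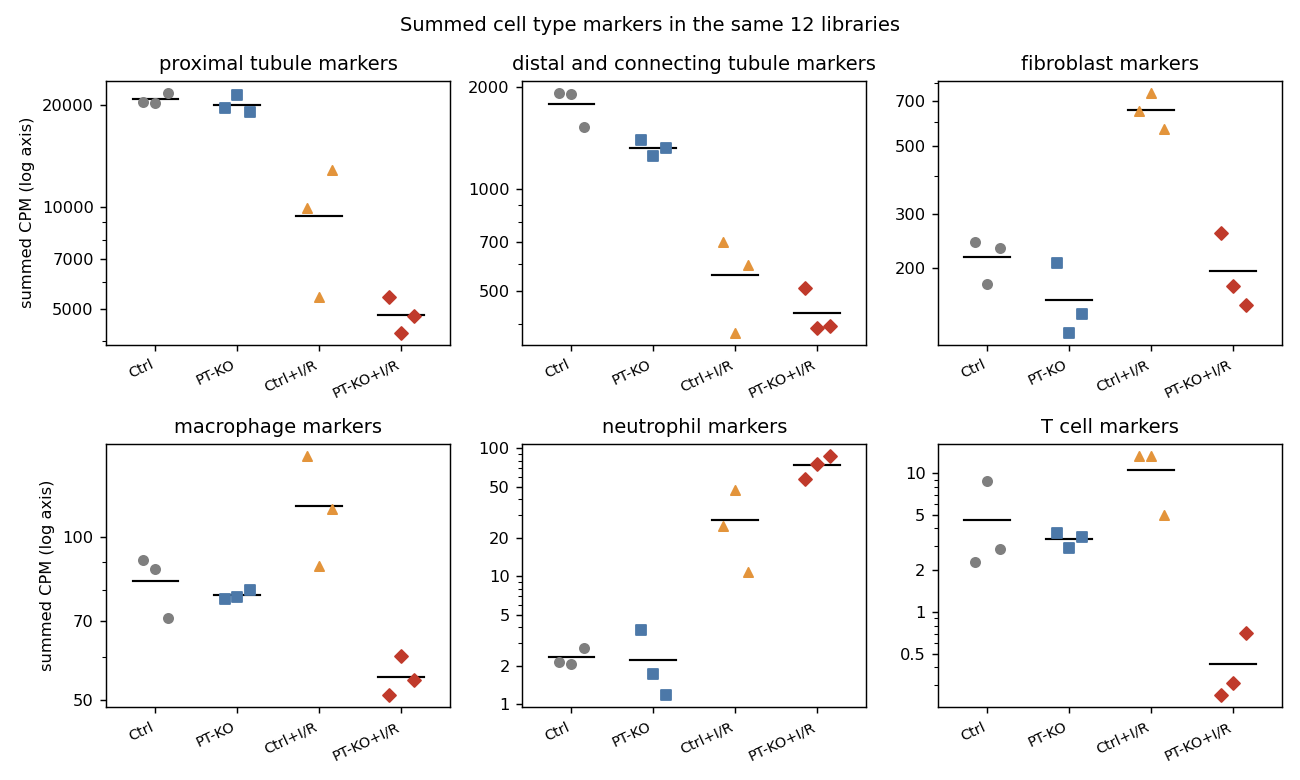
Summed CPM of the markers of 6 cell types in every library, on log axes, by group. Points are libraries and bars are group means (n = 3). Proximal tubule sums are lowest and neutrophil sums highest in PT-KO+I/R, whereas fibroblast, macrophage and T cell sums have their highest means in Ctrl+I/R.

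Members were also matched to the genes most like them over the 12 libraries, by Pearson correlation of log2 CPM among 16167 other genes. The libraries shared 4 groups, so these values mostly describe likeness across groups. S100a11 and Anxa5 were among each other's 3 closest genes (r = 0.993), as were Anxa1 and S100a6 (r = 0.983). Anxa2 was closest to Actn1 (r = 0.995), Klf6 and Cldn4, and Anxa3 to Actn1 (r = 0.996) and Mvp. S100a10 was closest to Vat1 (r = 0.996), Itgb1 and Gdf15. The members that fell were close to other genes: S100g to H1f0 (r = 0.964), Spink8 and Slc22a5, and Anxa13 to Ttr (r = 0.974), Fuca1 and Setd3.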

How the data were processed

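Per the labels and the study's methods, kidney RNA was sequenced on an Illumina HiSeq instrument, and the submitters' processing notes name HISAT2 2.0.4 and the mm10 build. The authors deposited 1 table of raw counts per gene for 12 libraries, whose totals are given with the results and set the precision of low genes. The counting program, annotation and strand setting are not given in the sources used here. Without strand, reads of a gene and an antisense partner cannot be told apart, which concerns 98 exon bases of Anxa2 (2.6%, shared with Gm16144), and Anxa3 shares 112 bases (3.1%) with Gm42603 on its own strand.

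Groups were taken from the labels, with 3 libraries each. Each pair of groups was tested on its own 6 libraries with edgeR 4.0.16 in R 4.3.3 (filterByExpr, TMM scaling, quasi-likelihood F test), and the interaction on all 12, with Benjamini-Hochberg adjustment over all genes tested and a call at adjusted p under 0.05. An exact permutation test of 3 against 3 cannot go below p = 0.1. CPM values were scaled by TMM factors over the 12 libraries. Levels per kb used GENCODE M21 exon lengths. The tests were also run on simulated counts with the same dispersion for every gene and group. The spread of the members differed between groups, so that run does not show how the tests behave for them. DESeq2 1.42.0, total counts, other filters on low counts, a replicate block, sex as a covariate, 1 fit to all libraries and leaving out each library were tried as alternatives.

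The members and lists were chosen with earlier results of these data known. All tested members are named in every comparison, and of each other list up to 4 called genes with the largest absolute log2 fold change. Cell type markers named singly, and members of the lists named beyond these, were chosen after their values were seen. Of the listed genes 1, S100a7l2, had no symbol match in the table. Of the genes most like each member over the 12 libraries, 3 a member were found, and 1 of them is not reported here.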

Additional observations from a re-analysis of the deposited data

Results flagged for a closer look

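The change after I/R differed between genotypes for 2 members by the interaction test over all 12 libraries, which 30.6% of 16168 genes passed. Anxa3 rose by 1.57 more (log2, adjusted p = 0.0242) in PT-KO, and S100a10 by 1.21 more (adjusted p = 0.0135), with all 3 injured PT-KO libraries above all 3 injured control libraries for both genes, where 58.6% of all genes had injured groups that did not overlap. With the replicate number as a block, 0 members were called. The S100a10 interaction stayed past the threshold in each of the 12 fits that left out 1 library, from 0.97 to 1.59. That of Anxa3 ran from 1.27 to 2.23 and missed the threshold in 4 of the 12, without Ctrl library 2, Ctrl+I/R library 1, PT-KO library 2 or PT-KO+I/R library 4. With sex as a covariate Anxa3 lost its call (1.43) and S100a10 kept its own (1.24), but Ctrl was then set by library 3 alone.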

How the results depend on the processing

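Of the members called, 8 after I/R in controls and 9 in PT-KO, the counts were within 1.5 times under DESeq2, total counts, both filters and the fits to 12 libraries. Leaving out 1 library gave 3 to 8 in controls and 8 to 9 in PT-KO, and 379 to 4061 genes in all in controls, where the fit to 12 libraries called 4938 against 3019. Between the injured groups 2 members were called, against 4 with DESeq2, 5 with no low-count filter and 5 in the fit to 12 libraries. The count was 1 to 6 with 1 library left out. Sex as a covariate in the fit to 12 libraries again gave 5. That was no separate check, since every injured library held Y-linked counts. The interaction called 2, against 3 with DESeq2 and with no filter, 1 with sex as a covariate (3233 genes in all, against 4953) and 1 to 5 with 1 library left out. PT-KO against Ctrl called 0, with 0 to 1 members and 0 to 1930 genes with 1 library left out, 440 genes with DESeq2, 388 with no filter and 1 with total counts. Signs in that comparison turned for S100a6 (-0.067) and S100a11 (-0.096) with total counts and for Anxa5 (0.029) and S100a11 (-0.17) with sex as a covariate. With 1 library left out they ranged from -0.094 to 0.036 for Anxa5, -0.095 to 0.13 for S100a11 and -0.17 to 0.40 for S100a6. The Anxa13 interaction turned to 0.033 with sex as a covariate. In PT-KO against Ctrl without Ctrl library 3, the fit that gave 1930 genes, sex and genotype cannot be told apart. With sex as a covariate, Ctrl was set by library 3 alone. The cause of these moves was not tested. Total counts shifted the median of all genes by 0.12 in controls, -0.12 between uninjured groups and -0.21 between injured groups.

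Same-numbered libraries showed little likeness in the pairs examined. Over 12 such pairs the deviations from group means had a median correlation of -0.02, from -0.19 to 0.18, and 1 pair was over 0.1. Ctrl library 3 entered none of these pairs, so whether it pairs with another library was not tested. With the replicate number as a block, 0 members were called between the injured groups (Anxa3 1.39, adjusted p = 0.104, and S100a10 1.41, adjusted p = 0.0655; 1683 genes in all against 7169) and 0 for the interaction (Anxa3 1.57, adjusted p = 0.0801, and S100a10 1.16, adjusted p = 0.0655; 3215 genes). Without ischemia the block called 1 member, Anxa13 (1.65, adjusted p = 0.0316), and 1378 genes, and S100a6 turned to -0.29.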
